A study of Bos taurus with 24 samples.

Results

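The 162 gene features described here are those with 50 or more exon bins in the RNA of bull testis, out of 24525 gene features counted. An exon bin is a stretch of an exon that belongs to the same set of transcripts along its whole length, so a gene with many exons or many alternative transcripts has many bins. The genes were chosen by 2 measured values, the number of bins of a gene and its mean count over 24 bulls, which had to be at least 50. Features that join overlapping genes were left out, as were 4 identifiers named in the rule, 0 of which passed both thresholds. Of 183 single-gene features with 50 or more bins, 21 had a lower mean count and were not taken. The values that chose the genes are given here as a description.

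Each of 24 Holstein bulls gave 1 library of testicular mRNA, taken at 72 wk of age, and each bull was 1 replicate. The bulls had been raised in 3 groups of 8 on a high (HD), medium (MD, the control) or low (LD) diet during early life, and all were fed the MD afterwards. On a dry matter basis, crude protein was 20.0% in the HD, 17.0% in the MD and 12.2% in the LD. Total digestible nutrients were 67.9%, 66.0% and 62.9% in the same order. The groups thus differ in both protein and energy, and all bulls share the breed, the later diet and the age at collection. The tissue holds many cell types, so fewer cells of a type and less RNA per cell cannot be told apart. The identifiers could not be paired with gene symbols here, so the tissue was not checked against its marker genes and the genes are described by their number of bins. At most 2 identifiers in each direction are printed.

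Genes with very many exons encode large proteins such as extracellular matrix components, cytoskeletal linkers and the dynein motor chains of the sperm tail. Their transcripts are long. Libraries of mRNA are commonly made by catching the tail at the 3′ end of a transcript, and in broken RNA the stretch far from the tail is then read less. Coverage along a long transcript is for that reason a usual check of RNA condition.

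The 162 genes had between 50 and 317 bins, with a median of 63. There were 64 genes with 50 to 59 bins and 17 with 100 or more. The gene with 317 bins was followed by genes with 160, 145, 123 and 122. At the edge of the rule on bins, 5 genes had exactly 50, and 14 features with enough counts had 49 and were not taken. At the edge of the rule on counts, the lowest mean counts taken were 55.0 and 55.1, and the highest mean counts not taken were 44.5 and 42.5. Together the genes held 11431 of 210707 bins, or 5.43% of them.

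Mean counts of the genes ranged from 55.0 to 15214, with a median of 681. On the CPM scale, which divides a count by the TMM-scaled library size, the mean level over bulls ranged from 3.75 to 1054, with a median of 46.9. Because a read that crosses a bin border is counted in each bin, and because gene lengths were not available, these levels were not compared between genes. All 162 genes passed edgeR's filter on low counts, and all had counts in every bull.

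Bulls differed widely within a gene. The ratio of the highest to the lowest bull was 1.70 for the steadiest gene, which had 72 bins, and 4.405 for the median gene. The SD of log2 CPM (0.5 added) over the 24 bulls had a median of 0.48 among the 162 genes, and a median of 0.40 among all 15005 features that passed the filter. A gene with 113 bins had the largest SD, 1.27. Its CPM was 6.88, 19.2 and 42.7 in the lowest, median and highest HD bull, 3.68, 33.6 and 77.1 in the MD bulls, and 4.52, 15.7 and 36.7 in the LD bulls. The diets overlapped over most of that range. A gene with 61 bins ranged most between bulls. Its CPM was 0.267, 8.52 and 25.4 in the lowest, median and highest HD bull, 10.5, 20.6 and 40.8 in the MD bulls, and 8.36, 14.1 and 25.4 in the LD bulls. The lowest value stood in an HD bull, and the highest HD bull was level with the highest LD bull.

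The gene with 317 bins was covered very unevenly. Its CPM was 10.8, 25.6 and 52.5 in the lowest, median and highest HD bull, 15.96, 33.2 and 54.9 in the MD bulls, and 16.4, 25.3 and 48.5 in the LD bulls. The 3 diets overlapped almost fully. A single bin, number 310, held 38.6% of its counts, and 7.57% of its bins had no count in any bull. In the median bull, 76.7% of its bins had no count.

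Such an uneven pattern was seen in few of the genes. The fullest bin held between 2.88% and 38.6% of the counts of a gene, with a median of 6.36%, and in 6 of the 162 genes it held more than 20%. For the other 8944 features with at least 6 bins and 50 counts, the median was 20.6%, a value that also depends on having fewer bins. The fewest bins that together held 50% of the counts were 25.2% of the bins of the median gene, against 33.3% for those other features. The fullest bin was the first or the last bin in 64 genes. In 78 genes every bin had a count in at least 1 bull. Over all genes, 647 of the 11431 bins (5.66%) were empty in every bull, compared with 7.56% of all bins counted. A count in every bull was found in 5476 of the bins (47.9%), compared with 57.9% of all bins. The gene with the largest share of empty bins, 59.04%, had 83 bins and a mean count of 65.6.

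Coverage along the genes was summarised by a coverage index. The bins of a gene were divided into 3 equal stretches, and the index is the log2 ratio of counts (1 added) in the stretch at the fuller end to those at the other end. The fuller end is the one whose outermost bin held more counts over all bulls, so an index above 0 is partly fixed by that choice and its level is a description only. The strand of the genes was not used. The mean index over bulls was above 0 in 149 of the 162 genes, with a median of 1.62 and a range from -5.10 to 6.69. The median was 0.97 for the other features with an index and 0.93 for features with 20 to 49 bins. The contrast between the ends of a gene was thus larger in the median of the 162 genes than in either of these sets. When the bins were divided into 10 stretches, the median share of a gene's counts in the stretch at the thinner end ranged from 2.57% to 5.75% between bulls. In the stretch at the fuller end it ranged from 17.4% to 30.5%.

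Before the diets are compared, the coverage of the single libraries is described. The index of a library, taken as the median over 9106 features, was 1.42 in HD bull 13, 1.17 in HD bull 14 and 1.16 in HD bull 10. These were the highest of the 24 bulls, and all exceeded the highest MD bull, at 1.036. LD bulls 24 and 21 also exceeded it, at 1.12 and 1.041, and were kept in every fit that left these 3 out. The main comparisons kept all 24 bulls, and the fits without these 3 HD bulls were chosen after seeing the data. Over the 162 genes alone the index was 2.70, 2.02 and 2.14 in HD bulls 13, 14 and 10, and it was 1.24 in HD bull 8, the lowest. Among LD bulls, bull 24 was the highest, at 2.00. The mean index over the 162 genes was 1.76 ± 0.501 (SD, n = 8) for HD, 1.495 ± 0.150 for the MD group and 1.65 ± 0.246 for the LD group. Without bulls 10, 13 and 14, the HD mean was 1.44 ± 0.182 (SD, n = 5).

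**Figure D1:**
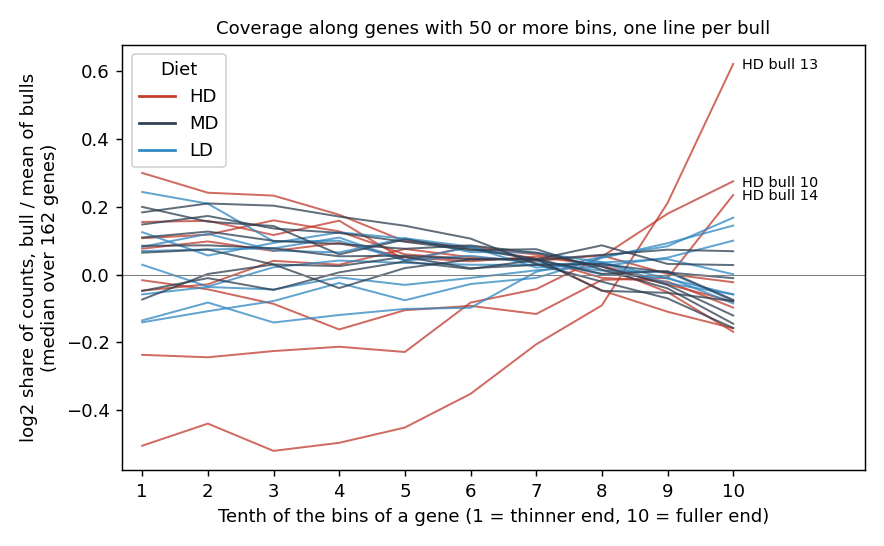
Coverage along the 162 genes. The x axis is the stretch of a gene's bins (1 at the thinner end, 10 at the fuller end) and the y axis is the log2 share of a gene's counts in that stretch in a bull relative to the mean of bulls, as the median over genes. Each line is 1 bull, coloured by diet. HD bull 13 runs from -0.50 at the thinner end to 0.62 at the fuller end.

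The profile along the bins showed the same libraries. HD bull 13 was lower than the mean of bulls by 0.50 on the log2 scale at the thinner end (-0.50) and higher by 0.62 at the fuller end. HD bull 10 went from -0.24 to 0.27. HD bull 14 was close to the mean at the thinner end, at -0.02, and reached 0.23 at the fuller end. HD bull 8 had the opposite slope, from 0.30 to -0.16. The HD group therefore held both the steepest and the flattest libraries, whereas the MD bulls lay between -0.07 and 0.20 at the thinner end.

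The share of a library's counts that fell on the 162 genes followed the same bulls. It was lowest in HD bull 14, at 0.761%, and next in HD bull 13 and HD bull 10, at 1.01% and 1.39%. LD bull 24 came next, at 1.41%, and MD bull 19 had the highest share, at 2.29%. The mean was 1.55 ± 0.457% (SD, n = 8) for HD, 1.88 ± 0.224% for the MD group and 1.74 ± 0.215% for the LD group. Without the 3 steepest libraries the HD mean was 1.86 ± 0.113% (SD, n = 5), close to the MD mean. These 3 libraries held the lowest shares of all bulls, so a higher HD mean without them was fixed in advance. The share and the index are set side by side here as values of the same libraries, and the part of RNA condition in the share was not tested.

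**Figure D2:**
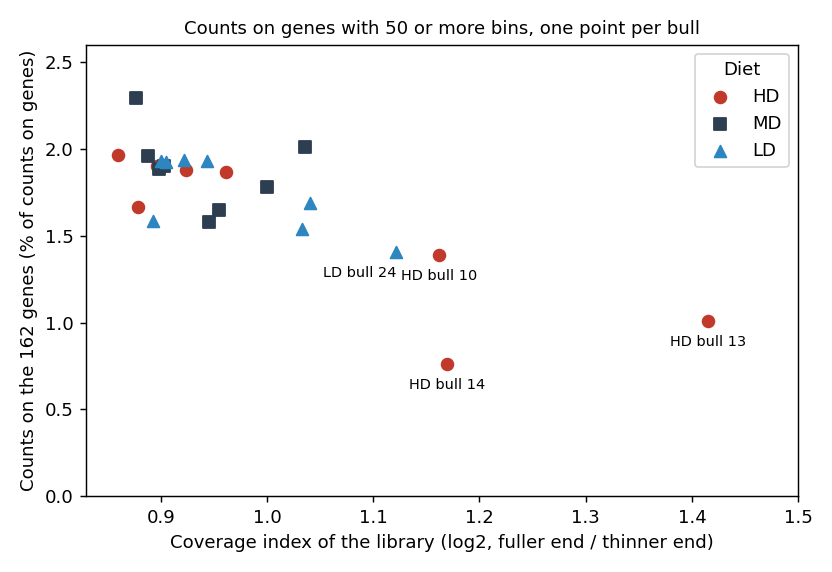
Share of counts on the 162 genes against the coverage index of the library. The x axis is the coverage index (log2, over 9106 features), the y axis is the share in percent of counts on genes, and each point is 1 bull, with colour and shape for the diet. HD bulls 13, 14 and 10 stand to the right and below the others, at shares of 1.01%, 0.761% and 1.39%.

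Gene by gene, the low libraries were seen again. HD bull 13 had the lowest CPM of all 24 bulls for 64 of the 162 genes, and HD bull 14 for 59. The next was HD bull 8, the lowest for 16. The highest bull was MD bull 6 for 47 genes, HD bull 8 for 37 and MD bull 19 for 26. In HD bull 13 the genes were in the median 0.85 below their mean over bulls on the log2 scale (-0.85), and in HD bull 14 the median was -0.72. The highest medians were 0.38 in MD bull 19 and 0.34 in MD bull 6. Only 15 of the genes were above their mean in HD bull 13, whereas 137 were in MD bull 19.

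Between HD and MD bulls, most of the 162 genes had fitted values lower in HD, but few passed the threshold and bulls varied. The median log2 deviation of the genes from their mean over bulls was -0.24 ± 0.37 (SD, n = 8) in HD bulls. In MD bulls it was 0.08 ± 0.21. By edgeR's quasi-likelihood test over 15005 features with Benjamini-Hochberg adjustment, 21 of the 162 genes (12.96%) had an adjusted p under 0.1, the threshold used in the study. The share over all features was 14.1%, so the number called was near the background. The direction was not: 20 genes (12.3%) were lower in HD, against 5.42% of all features, and 1 gene (0.617%) was higher, against 8.68%. This split of all features depended on the scaling. With library size as the only scaling, 3005 features were lower and 542 higher, and 63 of the genes were lower and 0 higher. At an unadjusted p under 0.05, 51 genes (31.5%) were lower in HD, against 13% of all features, and 2 (1.23%) were higher, against 15.9%. The log2 fold change was below 0 for 126 of the 162 genes (77.8%) and for 49.7% of all features. The median was -0.31, whereas over all features it was 0.00.

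The calls depended on which libraries were included, among all features as among these genes. Without HD bulls 10, 13 and 14, 0 of the 162 genes and 1 of all 15236 features were called by edgeR in HD against MD. The smallest adjusted p among the genes was 0.160, and 33 genes had an unadjusted p under 0.05, beside 3442 of all features. Of those 33, 16 were higher and 17 lower in HD. The median log2 fold change was then -0.11, beside -0.04 over all features. The 20 genes called lower with all bulls had values from -1.01 to -0.29, but they were chosen for that direction in a fit that held the same remaining bulls. Of all 162 genes, 100 had values below 0. When single bulls were left out in turn, the number of genes called ranged from 0 to 54. It was 0 in 8 of the 24 fits, those without HD bulls 7, 8 or 13 or without MD bulls 4, 6, 16, 17 or 19, and in each of these 8 fits 1 of all features was called. In those fits 35 to 53 genes had an unadjusted p under 0.05, and the smallest adjusted p was between 0.107 and 0.162. Without HD bull 12, 54 of the genes were called, beside 4019 of all features. Without HD bull 14, 39 were called, 9 of them higher and 30 lower, beside 3596 of all features.

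The direction of the calls changed with the number of bins. Among the single-gene features with 1 bin that were tested, 11.5% were higher and 2.55% lower in HD than in MD bulls. With 2 to 5 bins the shares were 14.2% and 2.90%, and with 6 to 10 bins they were 11.2% and 3.34%. With 11 to 20 bins, 4.70% were higher and 6.73% lower. With 21 to 49 bins, 1.61% were higher and 12.1% lower. The 175 features with 50 or more bins, which include 13 with under 50 counts, had shares of 0.571% and 11.43%. The median log2 fold change went from 0.13 with 2 to 5 bins to -0.06 with 11 to 20 bins, -0.21 with 21 to 49 and -0.30 with 50 or more. The shift was therefore shared with features of 21 to 49 bins. Among the 162 genes, with 50 to 59, 60 to 79 and 80 or more bins, the median was -0.30, -0.35 and -0.28. The values below 0 made up 70.3%, 82.5% and 82.9%, and the genes called lower were 9 of 64, 9 of 63 and 2 of 35.

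**Figure D3:**
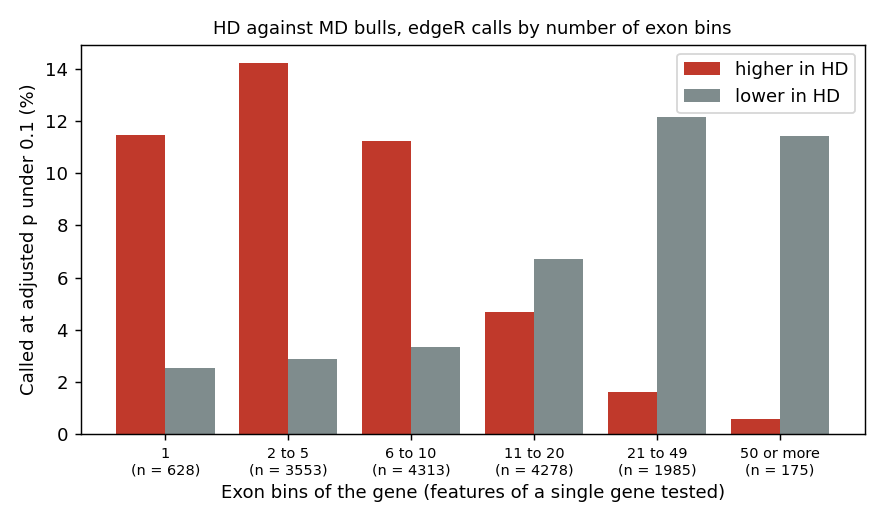
Calls for HD against MD by number of exon bins. The x axis gives classes of single-gene features by bins with the number tested, and the y axis the percent with an edgeR adjusted p under 0.1, for higher and lower in HD. The share higher is 14.2% with 2 to 5 bins and 0.571% with 50 or more, and the share lower is 2.90% and 11.43%.

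The 20 genes lower in HD than in MD bulls had 50 to 122 bins and mean levels of 7.58 to 127 CPM. Their log2 fold changes ran from -1.09 to -0.39, with a median of -0.67, and their edgeR adjusted p from 0.0702 to 0.0968. Against LD bulls, a comparison that shares the HD bulls, their values ran from -0.64 to -0.12, and 9 had an unadjusted p under 0.05.

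ENSBTAG00000021316, with 52 bins, had the smallest p of these genes. Its CPM was 6.84, 17.4 and 21.2 in the lowest, median and highest HD bull, 21.1, 28.6 and 58.3 in the MD bulls, and 10.5, 24.9 and 39.4 in the LD bulls. A single HD bull reached above the lowest MD bull, so that the groups overlapped by less than 1 CPM. The means were 16.6 ± 4.53 (SD, n = 8) for HD, 31.6 ± 11.96 for the MD group and 25.5 ± 9.77 for the LD group. The gene fell, with a log2 fold change of -0.93 (SE 0.25, edgeR adjusted p = 0.0702) between HD and MD. Between HD and LD the value was -0.61 (SE 0.24, edgeR adjusted p = 0.219). Its counts were spread evenly, with 4.10% in the fullest bin and a count in some bull for every bin. Its index did not stand out, at 1.18.

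ENSBTAG00000019052, with 61 bins, showed a similar difference with more overlap. Its CPM was 11.6, 33.4 and 49.4 in the lowest, median and highest HD bull, 35.8, 53.9 and 80.7 in the MD bulls, and 31.5, 41.8 and 57.4 in the LD bulls. The lowest values stood in HD bulls 13 and 8, at 11.6 and 18.8. The means were 32.1 ± 13.4 (SD, n = 8) for HD, 56.6 ± 17.5 for the MD group and 44.0 ± 9.68 for the LD group. It fell by 0.82 on the log2 scale between HD and MD (-0.82, SE 0.23, edgeR adjusted p = 0.0702).

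By edgeR, 1 gene was called higher in HD than in MD bulls, and by DESeq2 2 were, beside 1302 of 15005 and 1804 of 14767 features. ENSBTAG00000018669, with 57 bins, had a CPM of 14.05, 23.01 and 106 in the lowest, median and highest HD bull, 3.84, 10.01 and 44.2 in the MD bulls, and 6.05, 16.7 and 37.4 in the LD bulls. The highest HD value stood in bull 8, far above the next, at 48.2, and 7 of the 8 MD bulls lay under 16. The means were 35.7 ± 30.6 (SD, n = 8) for HD, 14 ± 13.02 for the MD group and 18.7 ± 10.6 for the LD group. It rose, with a log2 fold change of 1.35 (SE 0.47, edgeR adjusted p = 0.0818). Without HD bull 8 the value was 0.87 and the gene was not called. It was also the gene with the largest coverage index, 6.69, with 22.2% of its counts in its first bin.

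ENSBTAG00000018237, with 51 bins, came next among the genes with values above 0. Its CPM was 46.3, 76.1 and 92.2 in the lowest, median and highest HD bull, 43.3, 57.7 and 78.9 in the MD bulls, and 59.5, 65.2 and 84.5 in the LD bulls. The groups overlapped over most of their range. The log2 fold change between HD and MD was 0.32 (SE 0.14), which did not pass the threshold with edgeR (adjusted p = 0.124). With DESeq2 and its defaults it did (adjusted p = 0.0872), and with edgeR it was called in 4 of the 24 fits that left out 1 bull.

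**Figure D4:**
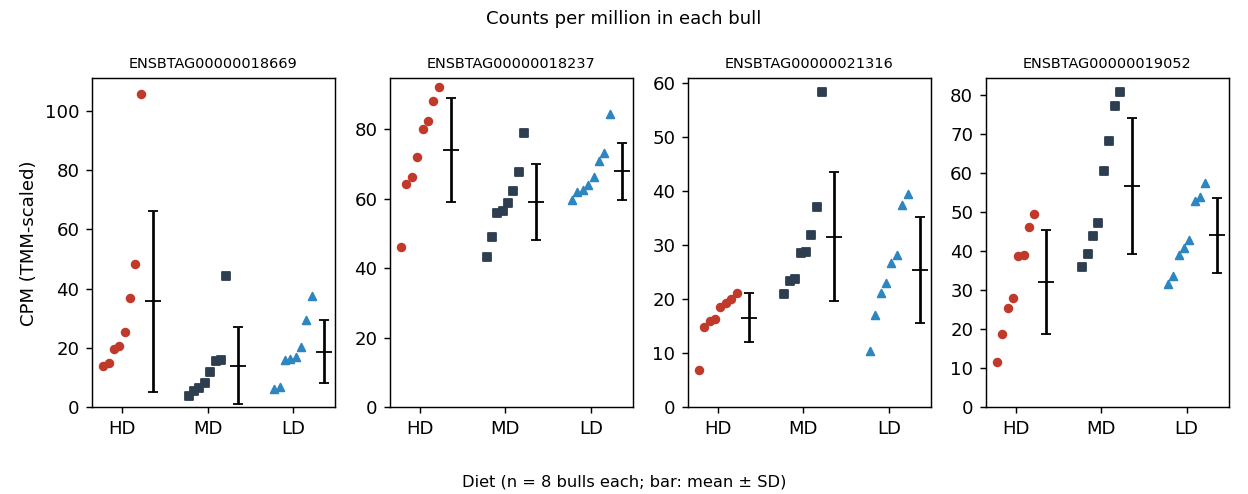
CPM of 4 of the genes in each bull. The x axis is the diet, the y axis is TMM-scaled CPM on a linear scale from 0, each point is 1 bull, and the bars give the mean ± SD of 8 bulls. For ENSBTAG00000021316 the HD bulls lie at 21.2 or lower and the MD bulls at 21.1 or higher. For ENSBTAG00000018669, HD bull 8 stands alone at 106.

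Between HD and LD bulls, 0 of the 162 genes were called by edgeR, as was 0% of all features. The smallest adjusted p among the genes was 0.206, and 15 genes had an unadjusted p under 0.05, 2 of them higher in HD. Over all features 2661 had. DESeq2 with its defaults called 2 of 135 genes with an adjusted p, beside 518 of 8613 features. The median log2 fold change was -0.16, with 116 genes below 0, and over all features it was 0.01. Without HD bulls 10, 13 and 14 the median turned to 0.02, in a fit that kept LD bull 24, whose index over 9106 features was 1.12, beside 1.16 in HD bull 10. In that fit 24 genes had an unadjusted p under 0.05, and 21 of them were higher in HD, so that most were in the opposite direction to the 15 found with all bulls. Over all features 2240 had, and the directions of these and of the 2661 were not counted. In the same fit 0 of the genes and 2 of all 15236 features were called. Between MD and LD bulls, 0 genes were called by edgeR and by DESeq2, 2 had an unadjusted p under 0.05, as had 161 of all 15005 features, and 0% of all features were called. The median log2 fold change was 0.12, with 127 of the 162 genes above 0, and it was 0.00 over all features.

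The coverage index of the genes was compared between diets with limma over 9106 features. Called genes numbered 0 of 162 in each of the 3 comparisons (HD with MD, HD with LD, MD with LD), where 0.0110%, 0% and 0% of all features were called. At an unadjusted p under 0.05 there were 21 genes for HD against MD, 18 of them steeper in HD, beside 963 of all features. There were 8 genes when HD was set against LD and 6 when MD was, beside 531 and 177 of all features. The median difference in index was 0.20 between HD and MD, 0.09 between HD and LD and -0.13 between MD and LD. Over all features the medians were 0.08, 0.06 and -0.03. Differences above 0 were found in 72.8% of the genes and 66.2% of all features between HD and MD. Between HD and LD the shares were 63.6% and 63.1%, so the number of genes was near the background. Without HD bull 13 the difference between HD and MD was 0.087, and that between HD and LD turned to -0.04, with 73 genes above 0 in place of 103. Over all features the medians were then 0.039 and 0.009. Leaving out any other single bull gave 0.04 to 0.14 between HD and LD. Between MD and LD the difference was -0.06 without LD bull 24 and -0.08 without LD bull 21.

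Relative use of single bins was tested with limma (voom and diffSplice) in the 140 of the genes with enough counted bins. By the Simes method, 1 gene was called between HD and MD bulls, beside 0.0448% of all 11154 features, and 4 genes had an unadjusted p under 0.05, beside 172 of all features. The gene had 56 bins, and the bin was its second bin, which was also its fullest. This bin held 17.96%, 33.4% and 57.1% of the counts of the gene in the lowest, median and highest HD bull, 11.42%, 16.9% and 26.9% in the MD bulls, and 16.4%, 21.2% and 28.7% in the LD bulls. The median HD bull lay above the highest MD bull, but the lowest HD bulls lay within the MD range. Its use was higher in HD than in MD by 1.103 on the log2 scale, with a limma adjusted p of 0.0124 for the gene. Without HD bull 13 no gene was called, and the smallest adjusted p was 0.407. The gene was also one of the 20 with a lower level in HD (-0.39, edgeR adjusted p = 0.0927). Between HD and LD and between MD and LD bulls, 0 genes were called, as was 0% of all features, and 3 and 0 genes had an unadjusted p under 0.05, beside 106 and 16 of all features.

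The levels were then related to 2 measures of the libraries within diets, in edgeR fits with diet and 1 measure. With a rising coverage index of the library, 52 of the 162 genes (32.1%) fell, against 4.27% of all features, and 0 rose, against 3.06%. The slope was below 0 in 154 genes, with a median of -1.73 log2 units per unit of the index, beside 0.06 over all features. When HD bulls 10, 13 and 14 were left out together, 0 genes were called, and over all features 1 fell and 0 rose. At an unadjusted p under 0.05, 25 genes then fell. The median slope was -0.85, beside 0.06 over all features, with 124 genes below 0. With bulls left out one at a time, 33 to 72 genes fell, beside 334 to 978 of all features, and 105 to 1314 of all features rose. Without HD bull 13, 49 genes fell and 0 rose, while over all features 797 fell and 1314 rose.

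The other measure was the share of reads that lay outside annotated exons, in percent of the bin counts and unassigned reads of a library. A read counts in each bin it covers, so this total is not the number of reads in the library. The share ranged from 9.54% in HD bull 8 to 21.4% in MD bull 6. Its mean was 12.3 ± 2.17% (SD, n = 8) for HD, 14.5 ± 3.28% for the MD group and 13.3 ± 1.83% for the LD group. Of the 162 genes, 74 (45.7%) rose with this share, against 28.1% of all features, and 20 (12.3%) fell, against 24.5%. Leaving out the 3 steepest libraries gave 86 and 18 genes, beside 4380 and 3956 of 15236 features. The other 68 passed in neither direction.

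The 74 genes that rose with the share included 19 of the 20 genes called lower in HD than in MD bulls, and 73 of the 74 had values below 0 in that comparison. How many of all 814 features called lower in HD also rose with the share was not counted. The HD and MD groups also differed in their mean share, so diet and share cannot be fully told apart in these values. With the share as a covariate, 0 of the 162 genes and 1 of all 15005 features were called by edgeR between HD and MD. At an unadjusted p under 0.05 there were 16 genes, beside 2376 of all features, and the median log2 fold change was -0.15. The levels of the 74 genes were highest in MD bull 6, where their median was 0.73 above their mean over bulls on the log2 scale and where 38 of them had their highest value. They were lowest in HD bull 13 (-1.12), where 49 had their lowest value, and next in HD bull 8 (-0.68). The 74 genes were chosen by their slope on the share within diets, so their order across bulls is partly fixed by that choice.

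The 20 genes that fell with the share had 51 to 109 bins and mean levels of 10.7 to 1054 CPM. They included the gene that was higher in HD, and 19 of them had values above 0 between HD and MD bulls. How many of all 3681 features that fell with the share had values above 0 was not counted. Of these 20 genes, 19 had their highest value in HD bull 8, with a median of 1.12 above the mean on the log2 scale, and 18 had their lowest in HD bull 14, with a median of -1.55. The 20 genes were chosen by their slope on the share within diets, so this order of bulls is partly fixed by that choice. Within the HD group, reads outside exons made up the smallest share in bull 8 and the largest in bull 14, at 15.6%. Larger shares in the other diets went with medians of the 20 genes that were less low. The medians were -0.77 in MD bull 6 (21.4%), -0.08 in MD bull 19 (16.5%) and -0.37 in LD bull 1 (15.96%). An example is a gene with 78 bins. Its CPM was 325, 1148 and 2292 in the lowest, median and highest HD bull, 590, 1047 and 1261 in the MD bulls, and 860, 935 and 1053 in the LD bulls. A gene with 81 bins had 302, 1047 and 2096 in the HD bulls, 453, 874 and 1159 in the MD bulls, and 615, 676 and 947 in the LD bulls. In both genes the HD bulls reached both below and above all other bulls. The log2 fold changes between HD and MD were 0.29 and 0.39, with edgeR adjusted p of 0.395 and 0.294.

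**Figure D5:**
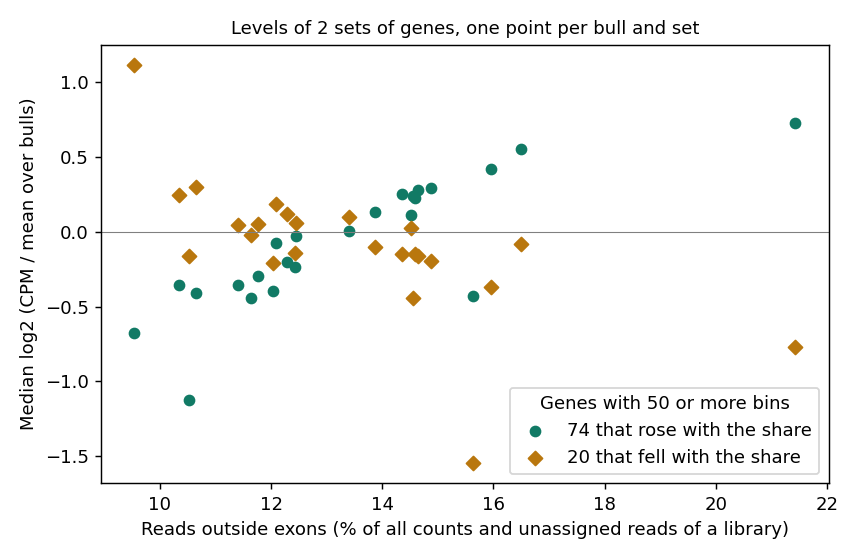
Levels of 2 sets of the genes against the share of reads outside exons. The x axis is that share in percent of bin counts and unassigned reads. The y axis is the median over the set of the log2 ratio of CPM in a bull to the mean over bulls. Each point is 1 bull and set. The sets were chosen by their slope on the x axis, so the trend is a description. HD bull 14 stands apart at -1.55 in the set of 20, and MD bull 6 at 0.73 in the set of 74.

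Counts on genes ranged from 9163675 in HD bull 14 to 21902110 in HD bull 11. Alignments of low quality made up 6.63% to 20.99% of a library, with the highest shares in HD bulls 12 and 8, at 20.99% and 17.9%. HD bull 14 thus had the fewest counts as well as one of the 3 steepest libraries, whereas HD bulls 12 and 8 had indices of 0.92 and 0.86 over 9106 features. The part of depth and of low quality alignments in the results above was not tested.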

How the data were processed

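Testicular mRNA of 24 bulls was measured, with 1 library per bull and 8 bulls per diet. The deposited values are raw counts of reads per exon bin, without normalization. For their own tests the authors normalized counts with DESeq2. Submitters' processing notes name CASAVA 1.9, TopHat2 2.0.10, Bowtie 1.1.2, featureCounts, DESeq2 and the UMD3.1 genome. The names of the deposited files point to the counting script of DEXSeq, whose version and settings are not given in the sources used here.

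The count of a gene was summed over bins, and a read therefore counts in each bin that it covers. Members and lists were chosen with earlier results of these data known. In R 4.3.3, edgeR 4.0.16 (TMM, filterByExpr, glmQLFit and glmQLFTest, all 24 bulls in 1 fit) gave the diet comparisons, with adjustment over all features tested and a threshold of 0.1. The SE is the size of the log2 fold change divided by the square root of F. The coverage index and use of bins were tested with limma 3.58.1, and DESeq2 1.42.0 was an alternative. Tables were made in Python 3.11.15 with pandas 2.3.3. The steps were tested on simulated data. Libraries held 9163675 to 21902110 counts. The SD given with a group mean is the spread between bulls, which includes counting error, and it is not the precision of the mean.

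Genes described singly had the smallest p, the most bins, the highest level, the largest or smallest SD or the least even coverage, and at most 2 identifiers with values above 0 and 2 below 0 were printed, those with the smallest p. The reference table, with 37063 genes, held 0 Ensembl identifiers, so names, lengths, sequences and 22 gene lists fixed for this tissue were not used. The fits on the coverage index and on the share of reads outside exons were chosen after seeing the data. That share is in percent of bin counts and unassigned reads. The sets made from these fits and the fits without 3 bulls were also chosen after seeing the data. Bulls are numbered as in the labels, and no numbers pair bulls across diets.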

Additional observations from a re-analysis of the deposited data

Results flagged for a closer look

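In 24 groups of 8 bulls tested for a sample far from the others, 4 stood out, where chance gives about 1 in 20 groups, or 1.20 here. For ENSBTAG00000018669, HD bull 8 had 105.6 CPM, with the next bull at 48.2, and MD bull 15 had 44.2 CPM, with the next at 15.9. For ENSBTAG00000021316, HD bull 13 had 6.84 CPM, with the next at 14.8, and MD bull 6 had 58.3 CPM, with the next at 37.1. HD bull 13 had the steepest coverage of the libraries, HD bull 8 the lowest share of reads outside exons and MD bull 6 the highest. The part of these library measures in the 4 values was not tested.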

How the results depend on the processing

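The number of genes called between HD and MD bulls, 21, was 63 with library size as the only scaling (all of them lower in HD, with 3005 of all 15005 features lower and 542 higher) and 33 with DESeq2 with or without its beta prior (2925 and 2937 of 14767). When only the fullest bin represented a gene it was 9 of 147 (1298 of 13472). It was 0, with 1 of all features called, without a filter on low counts, in a fit with only the 2 diets compared, with the share outside exons or the coverage index as a covariate, at an adjusted p under 0.05, and without the 3 steepest libraries. It was 21 with DESeq2's size factors, a mean of at least 10 counts or robust fitting. Library size alone moved the median over all features to -0.21 and that of the genes to -0.52, or -0.31 relative to it. With single bulls left out, the number called ranged from 0 to 54 between HD and MD, from 0 to 5 between HD and LD (5 without HD bull 12, beside 716 of 15075 features), and was 0 between MD and LD. DESeq2 called 1 (with the prior, 550 of 8202 features) or 2 genes between HD and LD. With single bulls left out, the median log2 fold change ranged from -0.37 to -0.23 between HD and MD, from -0.21 to -0.09 between HD and LD and from 0.08 to 0.17 between MD and LD. Called genes stayed at 0 for the coverage index, beside 0 to 4 of all features. In the use of bins between HD and MD they were 0 with the F test (14 of all features) and 0 to 2 with single bulls left out (1 to 12). With single bulls left out, 33 to 72 genes fell and 0 to 1 rose with the coverage index (334 to 978 and 105 to 1314 of all features), and 65 to 87 rose and 16 to 22 fell with the share outside exons (3986 to 4323 and 3329 to 3930). Without the 3 steepest libraries 0 fell with the index. The median CPM over the genes within a bull, averaged over bulls, was 10.6 with the most covered bin, beside 45.3, and the share of counts was 0.347%, beside 1.73%. Between HD and MD bulls, 0 of the 4 identifiers changed direction, and among 13 settings other than leaving out 1 bull the calls of ENSBTAG00000018669, ENSBTAG00000021316 and ENSBTAG00000019052 were lost in 8, 6 and 7. Between HD and LD, ENSBTAG00000018237 went from 0.12 to -0.06 with library size only. ENSBTAG00000018669 ranged from 0.87 to 1.88, ENSBTAG00000018237 from 0.26 to 0.40, ENSBTAG00000021316 from -0.99 to -0.74 and ENSBTAG00000019052 from -0.93 to -0.70 with single bulls left out. Why these settings differ was not tested. No paired analysis was possible because the labels give no number that pairs bulls across diets. Depth limited the test of single bins, for which 140 of the 162 genes had enough counts.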
